A study of Mus musculus with 18 samples.

Results

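A set of 10 genes of the endothelium, the cell layer that lines blood vessels, were followed in mouse embryos at embryonic day 9 with 20 to 24 somites: Kdr, Flt1, Tek, Tie1, Cdh5, Pecam1, Emcn, Etv2, Erg and Lyve1. They were found by their Ensembl identifiers, 10 of 53465 gene identifiers in the table of expected counts. Lyve1 was chosen by its measured values in these same data, low in the anterior DKO libraries, so its values there are a description with no test, as are those of the other members in that comparison. DKO embryos carried a conditional deletion of Meis1 and Meis2 by Delta1Cre, a Cre recombinase under the control of Delta1 (Dll1), which is active in the mesoderm that forms the somites and is not a driver specific for endothelium. Controls are called only controls in the labels, which give no alleles, litters or strain for either group. Each of 5 control and 4 DKO embryos gave an anterior library, from the older part of the axis that bears somites, and a posterior library, from the axial bud with the youngest somites. Each region thus had 5 control and 4 DKO libraries. The study asked how the Meis genes pattern the axial skeleton, and the regional split separated early patterning from later somite differentiation.

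Endothelial cells arise from mesoderm that switches on the VEGF receptor Kdr and the ETS family factor Etv2, and they later keep their identity through other ETS factors such as Erg. Kdr and Flt1 are receptors for VEGF, with Flt1 acting largely as a decoy, and Tek and Tie1 form the angiopoietin receptor pair. Cdh5 (VE-cadherin) and Pecam1 build the contacts between endothelial cells, and Emcn is a surface sialomucin of venous, capillary and endocardial endothelium. Lyve1 is a hyaluronan receptor known from lymphatic endothelium, and it is also found on sinusoidal and some venous and yolk sac endothelium and on subsets of macrophages.

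Library totals ranged from 12.7 to 38.2 M (megacounts), so that 3 counts, taken as the floor, corresponded to 0.0786 to 0.237 CPM (counts per megacount, scaled by TMM as described with the processing). Meis1 and Meis2 were checked first. Meis2 averaged 190 ± 10.0 CPM (SD, n = 5) in the anterior control and 143 ± 11.3 CPM (n = 4) in the anterior DKO libraries, and 143 ± 16.8 CPM against 99.5 ± 11.4 CPM posteriorly. Meis1 averaged 125 ± 8.65 against 102 ± 9.52 CPM anteriorly and 84.5 ± 15.2 against 57.5 ± 11.8 CPM posteriorly. Both were lower on average in DKO libraries of both regions, and neither passed the threshold, an adjusted p of 0.05, by edgeR's quasi-likelihood test in either (adjusted p 0.0522 to 0.336). Gene counts do not show which exons were covered. The bud markers T and Tbx6 separated the regions, with Tbx6 at 28.9 to 48.1 CPM in posterior and 0.170 to 0.518 CPM in anterior libraries. Control embryo 1 went against its label, female: its pieces held Y-linked transcripts at 151 and 162 CPM and Xist at 0.340 and 0.211 CPM, and results that rest on this embryo are given without it below. All members other than Lyve1 and Etv2 had at least 117 counts in every library, and the pan-endothelial list of 20 further genes summed to 277 to 433 CPM, so endothelial RNA was present in all 18 libraries. In these bulk libraries, fewer cells of a type and less RNA per cell cannot be told apart.

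Lyve1 was the least abundant member, and its anterior DKO values were the ones it was chosen for. Lyve1 (ENSMUSG00000030787, chromosome 7, 110850607 to 110863239, minus strand, GRCm38) stood at 1.08, 1.20, 1.17, 1.09 and 1.10 CPM in the anterior controls 1 to 5 (19, 31, 15, 19 and 17 counts). In the anterior DKO libraries 1 to 4 it stood at 0.143, 0.154, 0.231 and 0.173 CPM, from 5, 3, 4 and 5 counts. All 4 DKO values lay far below all 5 control values and near the floor (groups did not overlap for 5.07% of all genes). Pooled over libraries, 101 counts in controls and 17 in DKO gave 6.71-fold more in controls, which restates the values for which Lyve1 was chosen. The fitted log2 fold change was −2.68 (SE 0.267), given as a description with no test.

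In the posterior pieces of the same embryos the Lyve1 values of the genotypes overlapped. Posterior controls 1 to 5 had 1.002, 1.03, 0.807, 0.885 and 1.44 CPM (38, 24, 16, 26 and 22 counts). Posterior DKO libraries 1 to 4 had 1.02, 1.47, 0.374 and 0.154 CPM (27, 42, 7 and 3 counts). DKO embryos 1 and 2 lay within the control range or just above its top, while DKO embryos 3 and 4 lay below every control, so the DKO group spread from the floor to the highest value of all 18 libraries. The log2 fold change of DKO against control was −0.39 (SE 0.486), which did not pass the threshold by edgeR's quasi-likelihood test (adjusted p = 0.751), and 0.0126% of 15936 genes did. The value rested on single embryos: it was −0.93 without DKO 2, −0.56 without DKO 1, −0.19 without DKO 3, −0.082 without DKO 4 and −0.26 without control 5, none past the threshold (adjusted p 0.477 to 0.972), and −0.68 with limma-voom (adjusted p = 0.595). The pooled control to DKO ratio was 1.18 (95% counting interval 0.887 to 1.59). The difference of the posterior and the anterior DKO effects was 2.29 on the log2 scale (SE 0.614), a description since the anterior values chose the gene. Within embryos, Lyve1 was higher in the posterior than in the anterior piece in 3 of 4 DKO and 1 of 5 control embryos. The DKO count rests on the low anterior values for which Lyve1 was chosen and restates that choice. In DKO 3 it rests on 4 anterior and 7 posterior counts. With somite number the DKO values followed no single order: embryos 1 to 4 had 22, 24, 20 and 23 somites.

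**Figure D1:**
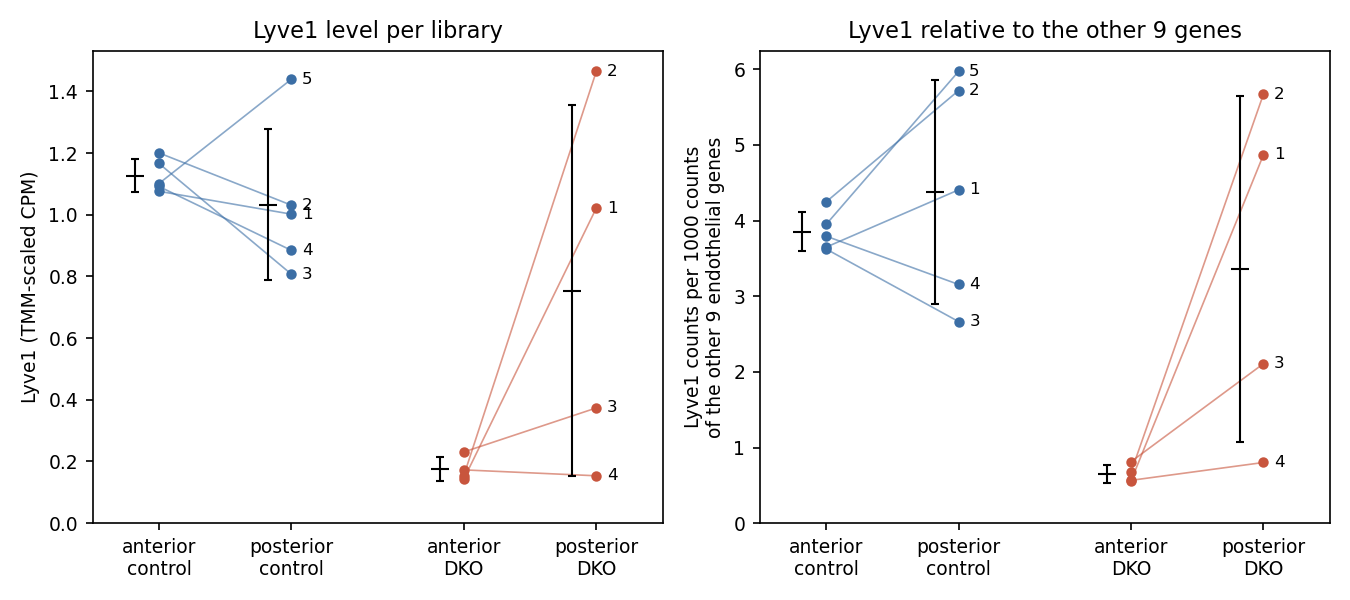
Lyve1 per library, as CPM (left) and as counts per 1000 counts of the other 9 members in the same library (right), in the 4 groups on the horizontal axis. Points are libraries, lines join the 2 pieces of an embryo (numbers at the right are embryo numbers), and bars beside them are mean ± SD (n = 5 control, n = 4 DKO); the 4 anterior DKO points lie at 0.143 to 0.231 CPM, below the anterior controls at 1.08 to 1.20 CPM, while the posterior DKO points spread from 0.154 to 1.47 CPM.

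Set against the other 9 members in the same library, Lyve1 gave values that do not depend on the scaling between libraries; the anterior ones rest on the counts for which it was chosen and restate that choice. Anterior controls had 3.62 to 4.25 Lyve1 counts per 1000 counts of the other 9 members, and anterior DKO libraries had 0.556 to 0.812. Posterior controls had 2.66 to 5.97 and posterior DKO libraries 0.802 to 5.67. The groups overlapped only in the posterior region. Markers of other cells that can carry Lyve1 were read beside it. The macrophage list of 16 genes, in which Cd14 (up to 8.77 CPM) and Csf1r (up to 5.37 CPM) reached the highest levels, summed to 10.1 to 14.6 CPM in anterior controls and 11.9 to 16.9 CPM in anterior DKO libraries. Among its members Timd4 was at 0 in 15 of 18 libraries and Aif1 in 7, and in the anterior comparison 0 of 7 macrophage genes tested passed the threshold of edgeR's quasi-likelihood test, as 0.0394% of all 15238 genes did, so this count sets the list apart from no other genes; 1 of the 7, Mrc1 (log2 0.63, adjusted p = 0.299), had an unadjusted p under 0.05, beside 13% of all genes. Posteriorly the macrophage sum was 9.59 to 43.2 CPM in controls, with control 5 the highest library in both this sum and Lyve1 among the posterior controls, and 10.5 to 23.4 CPM in DKO libraries, where DKO 4 had the highest sum and the lowest Lyve1 value. The yolk sac visceral endoderm list of 12 genes summed to 12.4 to 36.4 CPM in anterior controls, 13.5 to 21.9 CPM in anterior DKO, 13.5 to 18.5 CPM in posterior controls and 12.8 to 46.3 CPM in posterior DKO libraries, where embryos 1 and 2 were highest in both this sum and Lyve1, and embryo 4, with the lowest Lyve1, had a higher sum than embryo 3. Of the hepatic sinusoid genes listed beside Lyve1, Maf (2.14 to 6.13 CPM) and Gpr182 (1.24 to 3.003 CPM) were found in every library. Gpr182 is also on the pan-endothelial list. Gata4 reached 2.94 CPM, Oit3 0.982 CPM and Fcgr2b 0.720 CPM. Stab2 had no more than 3 counts in 7 of 18 libraries, Dnase1l3 in 17 and Clec4g in all 18. Maf and Gpr182 differed by log2 values of −0.43 and 0.20 between anterior DKO and control libraries, neither past the threshold (adjusted p 0.458 and 0.747). What part these cells had in the Lyve1 values was not tested.

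Along the axis, Kdr, Emcn and Etv2 differed between regions in controls, and Kdr in DKO embryos. Kdr (ENSMUSG00000062960, chromosome 5, 75932827 to 75978458, minus strand) was lower in the posterior pieces of both genotypes, while the junction genes Cdh5 and Pecam1 were close to level between regions. Emcn (ENSMUSG00000054690, chromosome 3, 137341067 to 137432185, plus strand) and Etv2 (ENSMUSG00000006311, chromosome 7, 30633616 to 30635852, minus strand) were lower posteriorly in controls too. Of the 10 members, 3 passed the threshold in controls, all lower posteriorly, where 25.4% of 15294 genes were called and 13.3% were called lower. In the DKO embryos 1 of 9 tested members passed, against 18.5% of 15777 genes, with 9.7% called lower; Lyve1 there was under the filter on low counts. Higher calls made up 12.1% of all genes in controls and 8.76% in DKO.

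Anterior control libraries 1 to 5 held Kdr at 87.4, 83.1, 97.2, 83.2 and 83.8 CPM. Their posterior partners held 47.6, 36.4, 64.4, 57.2 and 52.7 CPM. The highest posterior value was under the lowest anterior value, and Kdr fell in all 5 embryos, by edgeR's estimate at −0.75 on the log2 scale (SE 0.121, adjusted p = 0.000561, edgeR's quasi-likelihood test). Anterior DKO libraries 1 to 4 held 76.5, 68.4, 83.2 and 97.4 CPM, and posterior ones 45.5, 51.5, 38.0 and 34.4 CPM. In DKO embryos Kdr was again lower in each of 4 posterior pieces, at −0.94 (SE 0.138, adjusted p = 0.000943). The regional difference of Kdr did not differ detectably between genotypes (interaction −0.19, SE 0.198, adjusted p = 0.999). That test called 0 members and 0% of 16428 genes, while 3.45% of genes, and none of the 9 members other than Lyve1, had an unadjusted p under 0.05; DESeq2 and limma-voom called 0 members.

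Emcn was at 26.1, 23.4, 25.4, 30.4 and 27.7 CPM in the anterior controls and at 16.96, 12.5, 21.8, 19.8 and 21.5 CPM in the posterior controls. The groups did not overlap, as for 20.1% of all genes, and edgeR gave −0.53 on the log2 scale (SE 0.137, adjusted p = 0.0135). In DKO embryos Emcn ran from 22.8, 24.0, 23.6 and 26.3 CPM anteriorly to 17.3, 21.1, 10.9 and 19.2 CPM posteriorly. These groups did not overlap either (as for 23.5% of all genes), and the log2 value of −0.49 (SE 0.172) missed the threshold (adjusted p = 0.0790) unless the embryo entered as a block (−0.52, adjusted p = 0.0320, with 19% of all genes called). That blocked call was lost without DKO 1 (adjusted p = 0.0855), DKO 3 (0.0792) or DKO 4 (0.0586). Etv2 was at 2.66, 2.63, 2.41, 2.99 and 3.37 CPM in anterior and at 1.503, 1.42, 1.72, 1.63 and 2.36 CPM in posterior controls. It fell in all 5 control embryos, at −0.72 (SE 0.185, adjusted p = 0.0123). In DKO embryos Etv2 differed by −0.87 (SE 0.279), which missed the threshold (adjusted p = 0.0578) but passed it without DKO 2 (−1.06, adjusted p = 0.0195). DESeq2 called both genes in DKO (adjusted p 0.0254 for Emcn and 0.0210 for Etv2). The control calls of Emcn and Etv2 rested on few embryos: without control 1, whose sex label was contradicted, the adjusted p was 0.0631 for Emcn and 0.0581 for Etv2, and without control 4 it was 0.0570 and 0.0659. With the embryo as a block, both stayed past the threshold without any single control embryo (adjusted p at most 0.00537 for Emcn and 0.0402 for Etv2). Kdr stayed past the threshold without any single embryo, at −0.66 to −0.81 in controls and −0.76 to −1.12 in DKO.

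For Kdr, Etv2 and Emcn, the members called lower in posterior controls, the 250 bases before the annotated start are shown here from RefSeq (GRCm38.p6), each 5′ to 3′ on the strand of the gene, to allow their sequences to be compared. Capitals mark AGGAAG or its reverse complement, letters that hold the core bound by ETS factors such as Etv2 and Erg.
Kdr (chr5:75978456-75978705, minus strand): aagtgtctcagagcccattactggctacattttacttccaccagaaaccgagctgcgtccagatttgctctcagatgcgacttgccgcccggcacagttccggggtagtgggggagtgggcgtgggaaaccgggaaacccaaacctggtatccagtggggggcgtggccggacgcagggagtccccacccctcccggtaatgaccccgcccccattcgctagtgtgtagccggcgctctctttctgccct
Etv2 (chr7:30635853-30636102, minus strand): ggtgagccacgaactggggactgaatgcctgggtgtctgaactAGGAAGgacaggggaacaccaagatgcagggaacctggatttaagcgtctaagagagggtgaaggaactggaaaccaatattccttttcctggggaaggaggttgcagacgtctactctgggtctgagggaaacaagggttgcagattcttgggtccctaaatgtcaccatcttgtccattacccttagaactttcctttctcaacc
Emcn (chr3:137340828-137341077, plus strand): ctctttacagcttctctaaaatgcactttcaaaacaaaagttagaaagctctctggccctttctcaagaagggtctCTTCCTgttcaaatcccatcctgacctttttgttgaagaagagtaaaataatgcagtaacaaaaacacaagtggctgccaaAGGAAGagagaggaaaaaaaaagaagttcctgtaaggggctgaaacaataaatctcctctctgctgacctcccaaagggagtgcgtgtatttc
For AGGAAG, the Kdr window held no match, that of Etv2 held 1 and that of Emcn held 2. GGAA, the core within these letters, was not searched for or marked. It occurs in lower case in each window shown, that of Kdr included. RefSeq windows of 300 bases, with 50 after the start, were matched for 7 of 10 members, 9 windows in all. AGGAAG, searched on both strands, was in 5 of these 9 windows and in 35.4% of all 32851 promoters. AGATAA, letters bound by GATA factors, was in 2 of 9 and in 11.2% of all, and TGACAG, letters bound by Meis factors, in 2 of 9 and in 19.2% of all. A match describes letters and not a bound site.

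The other members differed less along the axis. Cdh5 (ENSMUSG00000031871, chromosome 8, 104101625 to 104144511, plus strand) was at 60.0, 58.1, 61.4, 55.4 and 56.8 CPM in anterior and at 59.6, 47.0, 78.6, 77.5 and 61.3 CPM in posterior controls. The posterior values lay on both sides of the anterior ones (log2 0.15, SE 0.117, adjusted p = 0.394). In DKO embryos Cdh5 differed by −0.023 (SE 0.161, adjusted p = 0.949), but without DKO embryo 2 it was called lower posteriorly (−0.30, adjusted p = 0.0466), a call lost with the embryo as a block (adjusted p = 0.0795). Pecam1 (ENSMUSG00000020717) had 25.1 to 28.1 CPM in anterior and 21.9 to 34.9 CPM in posterior controls, and log2 values of 0.07 in controls and 0.04 in DKO (adjusted p 0.697 and 0.887). Tek (ENSMUSG00000006386) was lower in the posterior piece in 5 of 5 control embryos, at −0.29 (SE 0.156, adjusted p = 0.205). With the embryo as a block the Tek value was −0.32 and passed the threshold (adjusted p = 0.0407), as 33.6% of all genes did. The differences within control embryos 1 to 5 were uneven, at log2 values of −0.61, −0.72, −0.16, −0.036 and −0.048. Without control 1 the blocked Tek value was −0.24 (adjusted p = 0.163), and it missed the threshold without control 2 (adjusted p = 0.134) or control 3 (adjusted p = 0.0552) as well. Flt1 (ENSMUSG00000029648), Tie1 (ENSMUSG00000033191) and Erg (ENSMUSG00000040732) had log2 values of −0.13, −0.14 and −0.13 in controls, none past the threshold (adjusted p 0.333 to 0.724).

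**Figure D2:**
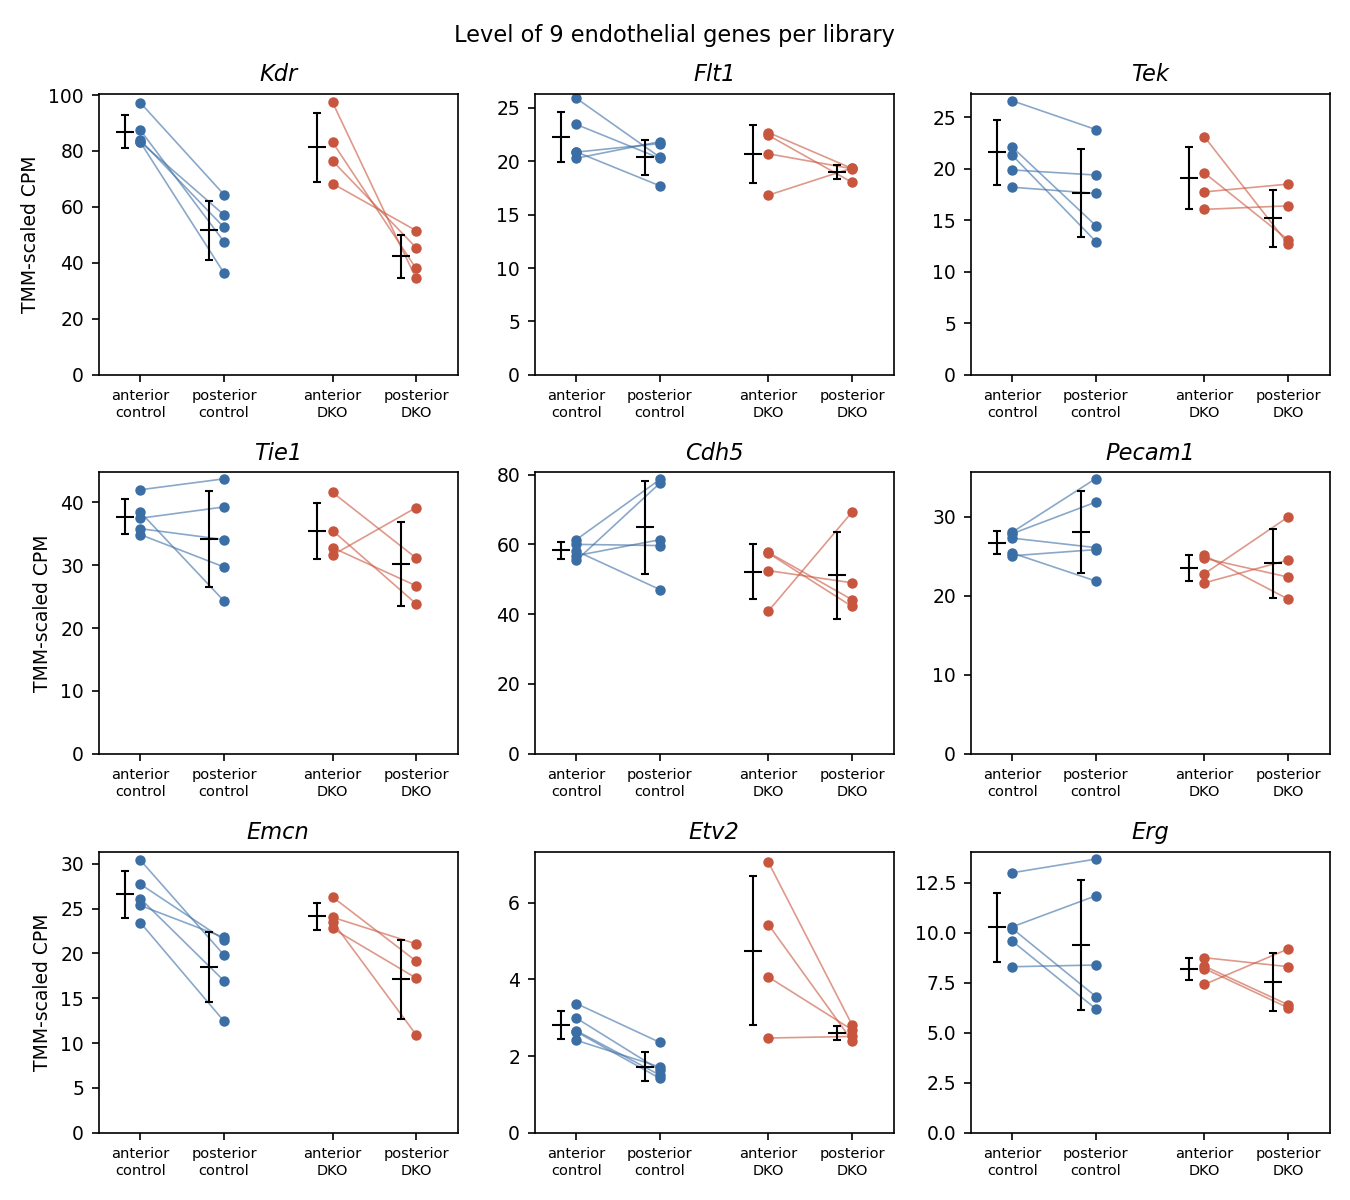
Level of the 9 members other than Lyve1 in TMM-scaled CPM (vertical axis) in each library of the 4 groups (horizontal axis). Points are libraries, lines join the 2 pieces of an embryo, and bars are mean ± SD (n = 5 control, n = 4 DKO); all posterior Kdr values, 34.4 to 64.4 CPM, lie below all anterior ones, 68.4 to 97.4 CPM, while those of Cdh5 and Pecam1 overlap.

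The ratio of Kdr to Cdh5 within a library does not depend on how libraries are scaled. There were 1.43 to 1.58 Kdr counts per Cdh5 count in anterior controls and 1.44 to 1.70 in anterior DKO libraries. Posterior libraries had 0.737 to 0.859 in controls and 0.744 to 0.928 in DKO. The 9 anterior libraries thus lay above the 9 posterior ones, and the genotypes overlapped in each region. Emcn per Cdh5 count was 0.404 to 0.549 and 0.256 to 0.351 in anterior and posterior controls, and 0.408 to 0.587 and 0.248 to 0.454 in DKO, where the regions overlapped. Genes listed for endocardium and heart were read beside these ratios. The endocardium and heart list of 12 genes summed to 90.2 to 124 CPM in anterior and 50.8 to 73.8 CPM in posterior controls. Of its 9 tested genes, 4 were called lower posteriorly, where 13.3% of all genes were, with Myh7 (−3.46), Tnnt2 (−2.44) and Actc1 (−1.89) at the largest log2 values. The other 5 were not called, with log2 values from −0.46 (Tbx20) to 1.57 (Hand1). In this list Nkx2-5 was at 0 in 12 of 18 libraries, Nppa was at 0 in 5 and Myl7 reached no more than 2.29 CPM. Actc1 reached 60.3 CPM. Neither the tissue from which the sum came nor the part of these genes in the values of Kdr and Emcn was tested.

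**Figure D3:**
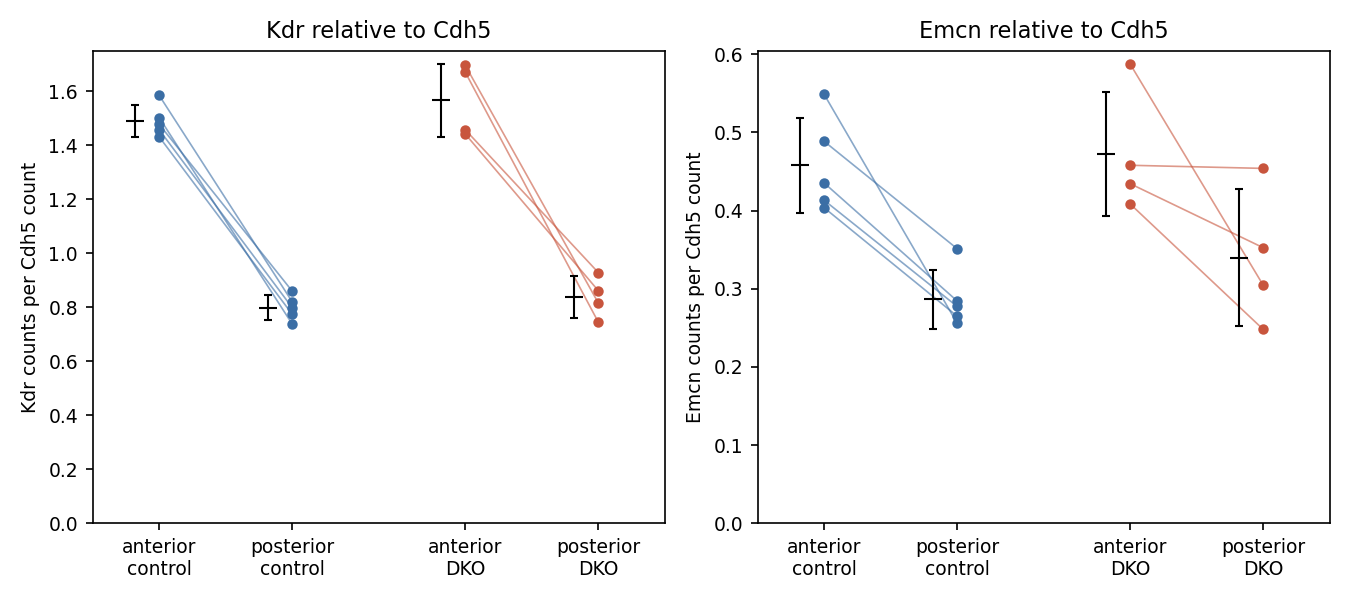
Kdr (left) and Emcn (right) counts per Cdh5 count in each library of the 4 groups. Points are libraries, lines join the 2 pieces of an embryo, and bars are mean ± SD (n = 5 control, n = 4 DKO); Kdr per Cdh5 is at least 1.43 in all anterior and at most 0.928 in all posterior libraries.

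Between genotypes, no member was called in the posterior region. Of the 9 other than Lyve1, 8 had negative log2 values of DKO against control in the posterior region, with a median over all 9 of −0.21 beside 0.01 over all genes. The count of 0 is from edgeR's quasi-likelihood test, which called 2 of 15936 genes (0.0126%) there, so it sets the members apart from no other genes. DESeq2, with 161 of these genes called, and limma-voom, with 3, also called 0 of 10 members. In edgeR 1 member had an unadjusted p under 0.05, where 11% of all genes did. That gene was Etv2, with 1.503, 1.42, 1.72, 1.63 and 2.36 CPM in the posterior controls and 2.69, 2.51, 2.40 and 2.82 CPM in the posterior DKO libraries. The lowest DKO value was just above the highest control value, as for 4.29% of all genes, and DKO lay above control by 0.61 on the log2 scale (SE 0.194), short of the threshold in edgeR (adjusted p = 0.388). In the anterior region, given as a description, 8 of the 9 were negative as well, with a median of −0.14 beside 0.00 over all genes. Anterior Etv2 was at 4.06, 2.47, 5.43 and 7.05 CPM in DKO libraries, with DKO 2 inside the control range and the other three above it, at a log2 value of 0.76 (SE 0.259). Erg was at −0.32 (SE 0.123) anteriorly, the lowest of the 9, and at −0.31 (SE 0.239, adjusted p = 0.596) posteriorly, where Cdh5 was the lowest at −0.34 (SE 0.172, adjusted p = 0.480). The sum of the 9 members was 279 to 322 CPM in anterior controls, 231 to 305 CPM in anterior DKO, 180 to 303 CPM in posterior controls and 177 to 258 CPM in posterior DKO libraries, overlapping between genotypes in both regions. The primitive erythroid list stood for blood cells that travel in these vessels. It had negative log2 values for 11 of 11 genes anteriorly and positive ones for 11 of 11 posteriorly, none past the threshold. By edgeR's quasi-likelihood test, 0 of 11 anteriorly, 7 posteriorly and 9 in the interaction had an unadjusted p under 0.05. Of all genes, 13%, 11% and 3.45% did. Genes of 1 cell type are not separate observations. The list sums overlapped between genotypes, at 1219 to 5891 CPM in control and 1533 to 2604 CPM in DKO anteriorly, and 1720 to 2779 and 2100 to 4308 CPM posteriorly. The part of this list in the values of the members was not tested.

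**Figure D4:**
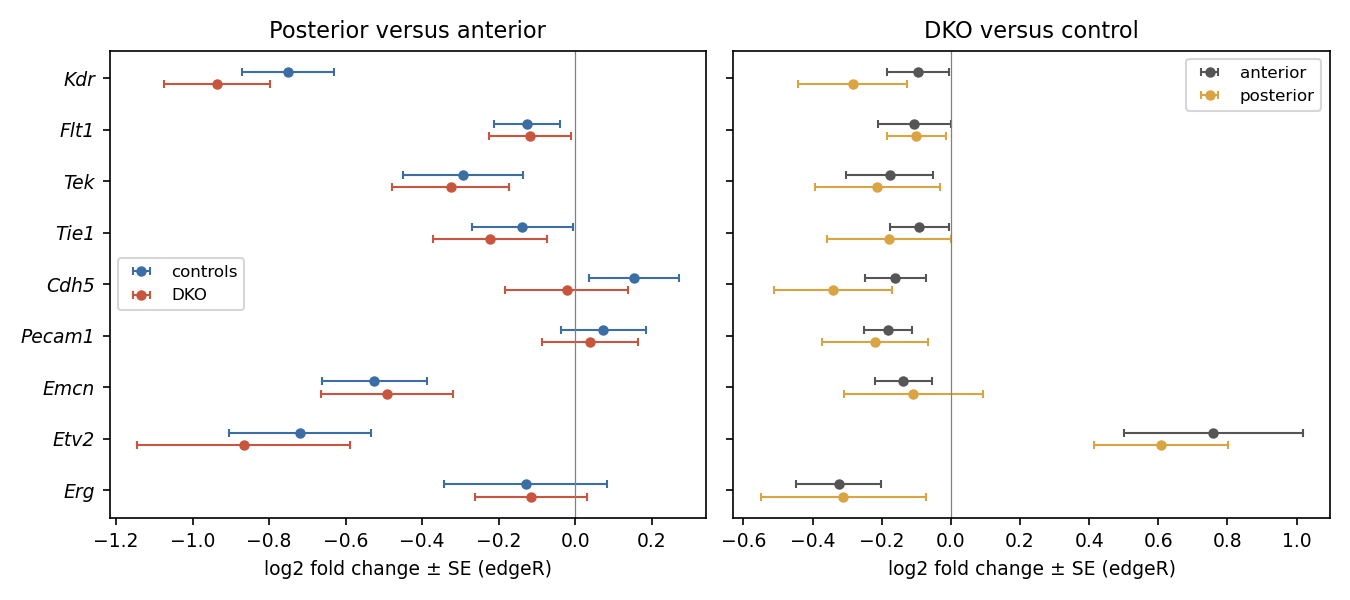
Log2 fold change ± SE (horizontal axis) of the 9 members other than Lyve1 (vertical axis) for posterior against anterior libraries (left, controls and DKO) and for DKO against control (right, anterior and posterior). Kdr lies at −0.75 and −0.94 on the left, and on the right Etv2 is the one gene above 0, at 0.76 and 0.61.

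Per kilobase of exon, Cdh5 was the most abundant member in every group, at 13.9 CPM per kb in the anterior controls, followed there by Kdr at 9.63 and Tie1 at 7.67, with Lyve1 last at 0.386. Over the groups, the order of Kdr was anterior control, anterior DKO, posterior control and posterior DKO, and only the step between anterior DKO and posterior control (81.3 to 51.7 CPM) exceeded the larger SD. For Emcn the same single step did (24.2 to 18.5 CPM), and for Etv2 the step from posterior DKO to posterior control (2.61 to 1.73 CPM). For Lyve1, at 1.13, 1.03, 0.754 and 0.175 CPM in anterior control, posterior control, posterior DKO and anterior DKO, each neighbouring pair overlapped. For the other 6 members no neighbouring pair of groups differed by more than the larger SD.

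Within groups most members varied together from library to library. After removal of the 4 group means from log2 CPM, the 28 pairs among the 8 members without Etv2 and Lyve1 had Pearson correlations of 0.194 to 0.915, with a median of 0.725. These points share embryos and library composition, so the values are descriptions over 18 libraries. Etv2 was less tied to those 8, at 0.127 to 0.524, and Lyve1 at −0.0616 to 0.452. Among 12561 genes with enough counts, the 5 most like Cdh5 were Plxnd1 (r = 0.938), a semaphorin receptor of endothelium, Kdr (0.915), Flt4 (0.903), the receptor for VEGF-C, Crtc3 (0.878) and Myo18a (0.876). For Lyve1 the group means were kept, so its likeness to other genes largely restates the low anterior DKO values for which it was chosen. By that measure the 5 most alike of 16427 genes were Spin4 (0.882), Slc51a (0.879), Ghr (0.869), Slfn9 (0.822) and Slc35f5 (0.817).

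**Figure D5:**
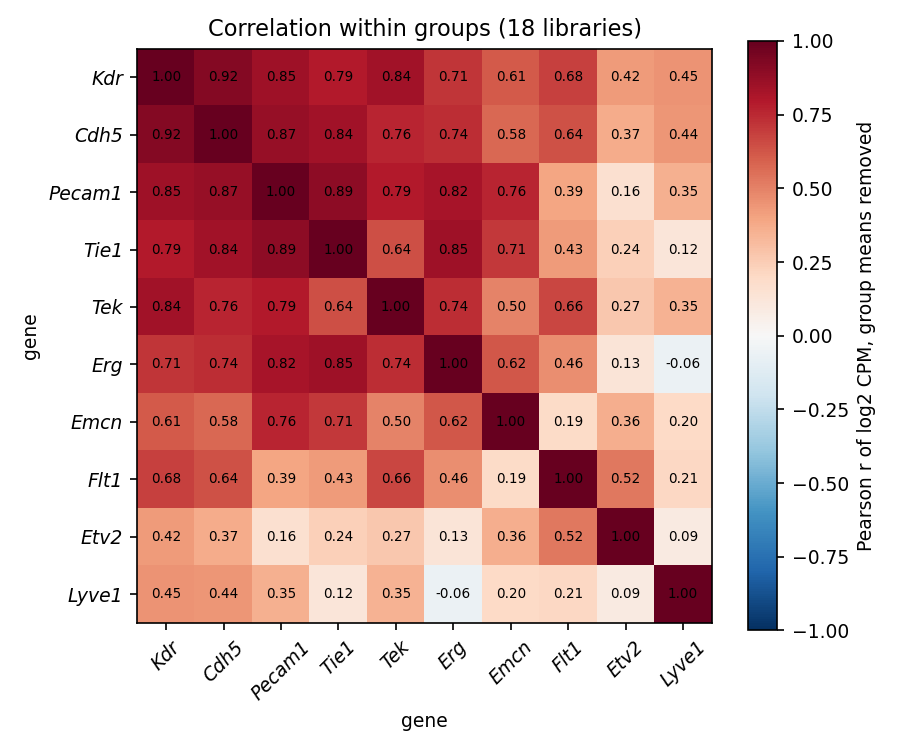
Pearson correlation (colour, with its value in each cell) of log2 CPM between each pair of the 10 members over 18 libraries after removal of the 4 group means. The 8 members at the top left correlate at 0.194 to 0.915, while Etv2 and Lyve1 in the last rows are less tied to them.

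Further vascular genes were read along the axis from lists. In controls 12.1% of all genes were called higher and 13.3% lower posteriorly, and in DKO 8.76% and 9.7%, and the list counts are read beside these shares. Of 20 pan-endothelial genes, 3 were lower posteriorly in controls, Cldn5 (−0.57), Eng (−0.53) and Egfl7 (−0.43), and Plvap, a protein of endothelial fenestrae, was higher (0.24), with a median of −0.07 beside −0.01 over all genes. Of 13 arterial genes, 5 were called higher, 1 lower and 7 neither, with a median of 0.29. Unc5b, a netrin receptor, had a log2 value of 2.22, Hey2, a Notch effector, 1.14, and Notch4 0.90, while Efnb2 was at −0.25. In DKO embryos 4 of 13 arterial genes were higher, among them Unc5b (2.43), Hey2 (1.40) and Notch4 (1.11), and 4 of 20 pan-endothelial genes were lower, Cldn5 (−0.68), Eng (−0.56) and Cd34 (−0.50) the most. Several arterial genes are also expressed in somites and neural tube, so their level is not that of arteries alone.

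Of 12 venous and lymphatic genes, 11 could be tested. For this list and those that follow, the shares of all genes called in controls were again 12.1% higher and 13.3% lower, and in DKO 8.76% and 9.7%. In controls 3 were lower posteriorly, Prox1 (−0.78), the lymphatic fate factor, Pdpn (−0.70) and Stab1 (−0.33), and the venous receptor Ephb4 was higher (0.39). Among 15 ligands and coreceptors of the VEGF and angiopoietin systems, 4 were higher posteriorly in controls, with Angpt2 (1.34), Apln (0.58) and Svep1 (0.52) at the top, and 2 lower, with Ccbe1 at −1.62. Of 16 endothelial transcription factors 4 were higher, led by Ets2 (1.57), Foxc2 (1.15) and Lmo2 (0.90), and 2 lower, Mef2c (−1.51) and Klf2 (−0.99). In DKO embryos Ets2 (1.72), Lmo2 (1.11) and Foxc2 (0.62) were higher too, and Mef2c (−1.85) and Klf2 (−1.25) lower. Foxc2 was also listed among somite and axial bud genes, so its level is not that of endothelium alone. In bulk libraries the levels of the other genes of these lists cannot be assigned to endothelium either. Of the haemogenic list, Kit was higher (0.97) and Myb (−0.92) and Cbfa2t3 (−0.53) were lower posteriorly in controls. Between genotypes, edgeR's quasi-likelihood test called 0 genes of these pan-endothelial, arterial, venous and lymphatic, ligand, transcription factor and haemogenic lists in either region. Of all genes, 0.0394% were called anteriorly and 0.0126% posteriorly, so these counts set the lists apart from no other genes. At an unadjusted p under 0.05, 4 of 15 ligands and coreceptors were lower anteriorly and 6 of 16 transcription factors were lower posteriorly, picked as the largest counts in 1 direction. Anteriorly, 2 arterial genes were higher and 2 lower of 13, and 2 venous and lymphatic genes were higher and 2 lower of 11. Over all genes, with both directions counted, 13% anteriorly and 11% posteriorly were under it.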

How the data were processed

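RNA sequencing libraries (poly(A) RNA, NEBNext, single-end 61 bp reads) had been made from the anterior and posterior axis of 9 embryos, per the labels' protocols. The deposited values are RSEM expected counts per Ensembl gene, not scaled between libraries. The submitters' processing notes name CASAVA, cutadapt, RSEM and GRCm38; the aligner and the use of strand are not given in the sources used here. No member shares exon sequence with another annotated gene. Symbols and coordinates came from GENCODE M21 (GRCm38), where 53360 of 53465 identifiers were found.

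Expected counts were rounded and fitted with edgeR 4.0.16 in R 4.3.3 (filterByExpr, minimum count 10 and total 15; TMM; quasi-likelihood test; Benjamini-Hochberg adjustment over all genes tested; threshold 0.05). SE is the log2 fold change divided by the square root of F. A prior count of 2 entered log2 CPM. The code was tested on simulated data. DESeq2 1.42.0, limma-voom (limma 3.58.1), other scalings and filters, covariates, a joint fit of 18 libraries, a block for the embryo and leaving out each embryo were alternatives. The pieces of an embryo were matched by somite number, sex label and genotype. With group means removed, the 9 same-embryo pairs correlated at 0.256 to 0.570 over genes and 32 other pairs of the same genotype at −0.283 to 0.0916. Reads carry no molecular identifiers, so intervals and floors cover counting error only. Embryos are the replicates; litters are not named.

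The members, the gene lists and the comparisons were chosen with earlier results of these data known. All members were named; of each other list, at most 3 genes per comparison and direction, those past the threshold with the largest change and a mean of at least 50 counts. Outside that rule, Tbx20, Hand1 (in controls), Nkx2-5, Nppa, Myl7, Cd14, Csf1r, Mrc1, Timd4 and Aif1 were named after their values were seen. So were Maf, Gpr182, Gata4, Oit3, Fcgr2b, Stab2, Dnase1l3 and Clec4g. Neighbours were the 5 genes with the highest correlation.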

Additional observations from a re-analysis of the deposited data

Results flagged for a closer look

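Flt1 in the posterior DKO group stood at 19.3, 19.4, 19.3 and 18.03 CPM in embryos 1 to 4. Embryo 4 lay apart from the other three by 0.954 of the range of the group, above Dixon's 95% critical value for 4 samples. It was 1 of 52 groups tested, and chance flags about 1 in 20.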

How the results depend on the processing

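Limits: Lyve1 rests on 3 to 42 counts per library, and 3 counts were the floor. Groups of 4 and 5 embryos bound the precision of every comparison.

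Counts of all genes called in the anterior DKO comparison were 6 in edgeR, 296 with DESeq2, 29 with limma-voom, 83 without a filter, 88 with covariates, 19 with all 18 libraries in one fit, and 1 to 57 on leaving out an embryo. Lyve1 was chosen from that comparison, so its value there is a description, at −2.81 to −2.58 over the alternatives, and untested with a mean of 50 counts. Posterior calls were 2, then 161 with DESeq2, 14 without a filter, 1 with a mean of 50 counts, 51 with all 18 libraries, and 2 to 24 on leaving out an embryo. The interaction gave 0, then 10 with DESeq2 and 0 to 1 on leaving out an embryo. Along the axis, members called in controls were 3, then 4 with the embryo as a block, 2 with a mean of 50 counts and 1 to 3 without an embryo. Calls over all genes went from 3884 to 5136 with the block, 3245 with a mean of 50 counts and 2922 to 3377 without an embryo. In DKO, members called were 1, then 3 with DESeq2, 2 without a filter, 2 with the embryo as a block and 1 to 3 without an embryo. Over all genes, calls in DKO went from 2913 to between 1728 and 2550 without an embryo. The cause of these moves was not tested.

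Signs turned for values short of the threshold with all embryos in. Posterior Emcn, DKO against control, ran from −0.22 to 0.053, the latter without DKO 3. Along the axis in DKO, leaving out an embryo moved Cdh5 between −0.30 and 0.10 (0.0026, 0.09 and 0.10 without DKO 1, 3 and 4) and Pecam1 between −0.10 and 0.16 (−0.0071 without DKO 1 and −0.10 without DKO 2). With the embryo as a block and an embryo left out, an alternative chosen after seeing the data, Pecam1 ran to −0.012 in controls (without control 3) and to −0.027 and −0.098 in DKO (without DKO 1 and 2), and Cdh5 to 0.072 and 0.089 in DKO (without DKO 3 and 4). Somite slopes without the sex label were 0.0125 for Kdr, 0.0011 for Tie1 and 0.0126 for Emcn anteriorly and 0.0585 for Etv2 posteriorly. The embryo as a replicate block changed the call of Tek in controls (−0.32) and Emcn in DKO (−0.52), and of no other member with all embryos in. Blocked with an embryo left out, calls were gained for Cdh5 in controls (0.24 without control 2, adjusted p = 0.0430), and without DKO 2 for Tie1 (−0.42, adjusted p = 0.0257) and Etv2 (−1.02, adjusted p = 0.0226) in DKO.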

Other observations

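The number of somites, a measure of age within embryonic day 9, was set against the members after their values had been seen. Among the posterior controls, the embryo with the fewest somites (20) had the lowest level of 9 of 10 members and the one with the most (24) the highest level of 7. Over all 16428 genes the same embryos were lowest for 22% and highest for 17.6%. Among the posterior DKO libraries the members' counts were 6 and 8, beside 26.9% and 24.3% of all genes. In the anterior DKO libraries they were 0 and 0 (29.1% and 30.8% of all genes), and in the anterior controls 2 and 7 (23% and 22.3%). Each count rests on 1 library, and most members vary together within groups, so they are not separate observations. Posterior Emcn was 12.5 CPM in the control with 20 and 21.8 CPM in the control with 24 somites, and 10.9 and 21.1 CPM in the DKO embryos of those stages.

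In fits with genotype, sex label and somite number, no member had a slope past the threshold in either region by edgeR's quasi-likelihood test, and 0% of all genes did. At an unadjusted p under 0.05 there were 0 of 10 members in either region, beside 9.19% of all genes anteriorly and 4.34% posteriorly. Posterior Emcn had a slope of 0.16 per somite on the log2 scale (SE 0.0757, adjusted p = 0.9999). Without the sex label, which 1 embryo contradicted, the slope was 0.19 (SE 0.0456, adjusted p = 0.270). In that fit 4 of 10 members, Emcn, Tie1, Pecam1 and Kdr, had an unadjusted p under 0.05 posteriorly, beside 6.42% of all genes, and none passed the threshold after adjustment (adjusted p 0.270 to 0.768). Anteriorly 0 of 10 members and 12.9% of all genes had an unadjusted p under 0.05 in that fit.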
